A study of Mus musculus with 8 samples.

Results

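The genes described here encode heat shock proteins and their co-chaperones in mouse trophectoderm, mostly of the cytosol and mitochondria, with some of the endoplasmic reticulum and the nucleus. They were chosen by symbol: the Dnaja, Dnajb and Dnajc families, the HSP70 and HSP110 genes (Hspa and Hsph1), Hsp90aa1 and Hsp90ab1, the small heat shock proteins (Hspb), the chaperonin pair Hspd1 and Hspe1, the heat shock factors Hsf1 and Hsf2, and Bag1 to Bag6. Of the endoplasmic reticulum (ER) genes only Hspa5, Dnajb9, Dnajb11 and Dnajc3 were left out. The rule matched 60 of 14860 genes measured under a single symbol, and where a gene had several probe sets the one with the highest mean over all arrays was kept. That mean is the measured value that entered the choice, and it decided between rows for Dnajc2 alone. Of 23 genes listed as the textbook core of the family, 15 were among the 60, while Hspa8, Hspa1b, Hsp90ab1, Hspd1, Hspe1, Hspb1, Hsf1 and Dnajb6 were not analysed here.

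Trophectoderm, the outer cell layer of the blastocyst, contributes to the placenta. Only its part at the abembryonic pole was cut from embryos at embryonic day 4.5. Each sample pooled the tissue of 5 blastocysts on 1 Affymetrix array. Dams were C57BL/6J females given a control chow (Lab Diet 5015) or a high fat chow (Teklad 06414) between weaning and mating at 16 weeks of age with C57BL/6J males, and there were 4 arrays per diet. The embryos carried no engineered allele, and the labels call the pools biological replicates without saying which dams supplied them. The p-values therefore cover the differences among pools only. The comparison asks whether maternal diet went with a different level of chaperone transcripts in this tissue.

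HSP70 proteins hold unfolded stretches of other proteins in a cycle driven by ATP. J-domain proteins, named Dnaj after the bacterial DnaJ, bring clients to HSP70 and trigger its ATP hydrolysis, and the HSP110 and BAG proteins release the nucleotide so that the client is let go. HSP90 receives a part of these clients from HSP70, small heat shock proteins keep aggregates soluble, and heat shock factors switch on the inducible genes by binding repeated GAA units in their promoters. HSP70 genes are known to be among the earliest genes transcribed by the mouse embryo.

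The values are log2 signals. Background was set on each array at the 95th percentile of its 832 olfactory, vomeronasal and taste receptor rows, and ran from 5.86 to 6.11 on control diet arrays and from 6.13 to 6.59 on high fat diet arrays. The median log2 change (high fat diet minus control diet) of all 16015 tested probe sets was +0.22, and that of the receptors was +0.20, so a member with a change near +0.2 did what the arrays did as a whole. High fat diet replicate 3 stood apart, with a mean correlation to the other arrays of 0.832 against 0.879 to 0.890 elsewhere. Of the 10 measured trophectoderm markers, 9 to 10 lay above the background on control diet arrays and 8 to 10 on high fat diet arrays. Gata3, a trophectoderm factor, read 11.14 ± 0.26 in control pools against 9.65 ± 1.22 in high fat ones (mean ± SD of 4). Its highest value with the high fat diet was under its lowest with the control diet (limma adjusted p = 0.13). Groups lay apart in that direction for 0.855% of all tested probe sets. No other of the 10 had its groups apart or passed an unadjusted limma p of 0.05. Of the 10, 7 had a change above 0, against 78.7% of all tested probe sets. The mean log2 signal of the 10 ran from 8.69 to 8.96 in control diet pools and from 8.35 to 8.99 in high fat diet pools. Cdx2 read 7.64 ± 0.26 and 7.72 ± 0.27. Of 7 inner cell mass markers, 4 to 5 lay above the background on each array, among them Pou5f1 on all 8, while Sox2 did so on none. The mean log2 signal of that list ran from 6.25 to 7.35 in control diet pools and from 6.90 to 7.19 in high fat diet pools. Its members Fgf4 (7.39 ± 0.26 and 8.14 ± 0.38) and Klf2 (6.66 ± 0.07 and 7.30 ± 0.18) were higher on every high fat diet array than on any control diet array, with limma adjusted p = 0.115 for each. Of all tested probe sets, 25.4% lay apart in that direction. In the list of 7, 6 had a change above 0, as had 78.7% of all tested probe sets. Nanog went the other way (7.34 ± 1.14 and 6.89 ± 0.60), and the change of Pou5f1 was +0.07. The 9 uterine markers read 5.64 to 5.84 and 5.96 to 6.36 in mean log2 signal, with 3 to 4 above the background on each array. Of them, 5 (Calb1, Ltf, Muc1, Pgr and Vim) were under the background throughout. The 4 blood markers read 5.16 to 5.22 and 5.37 to 5.60, with 1 above it on each array and Ptprc, Cd74 and Csf1r on none. The 6 primitive endoderm markers read 6.06 to 6.23 and 6.27 to 6.57, with 3 to 4 above the background and Pdgfra and Sox7 on no array. For these 3 lists the ranges of the diets did not overlap, and relative to all tested probe sets their median changes were +0.12 for uterus, +0.03 for blood and +0.02 for primitive endoderm. The part of these cells in the results was not tested, and in pooled tissue fewer cells of a type and less RNA per cell cannot be told apart.

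No chaperone or co-chaperone gene passed the diet comparison. By limma's adjusted p under 0.05, 0 of 60 members were called, against 0.00624% of all tested probe sets, and the members' adjusted p-values ran from 0.115 to 0.938. At an unadjusted limma p under 0.05, 14 members (23.3%) had a higher signal with the high fat diet against 30.1% of all tested probe sets, and 3 (5.00%) had a lower one against 1.79%. All 4 high fat diet arrays lay above all 4 control diet arrays for 14 members (23.3%), against 25.4% of all probe sets, and below them for 1 member, Dnajc10 (1.67% against 0.855%). The higher counts were thus no larger than the background of this comparison, and the lower counts rest on 3 genes and 1 gene. The median log2 change of the members was +0.17, which is -0.05 when the median of all is taken off. It was +0.01 after median centring of the arrays and -0.04 after cyclic loess.

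**Figure D1:**
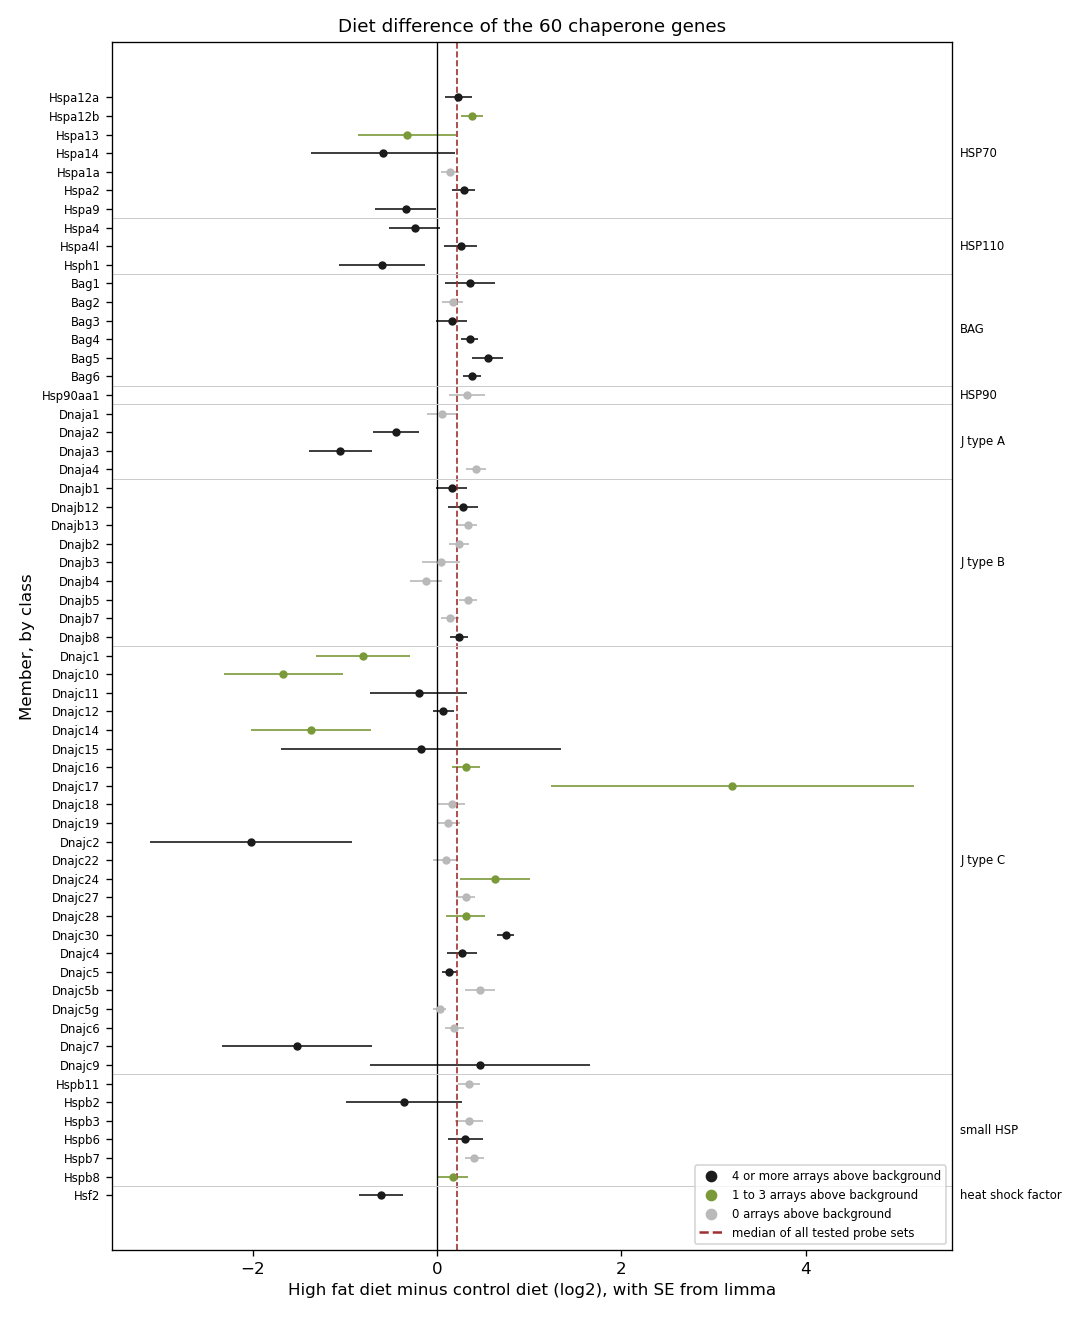
Difference between diets in log2 signal for each of the 60 genes, grouped by class, with the standard error from limma; the dashed line is the median of all tested probe sets (+0.22) and the shade gives the number of arrays above background. Most genes lie near the dashed line, and the widest bars are those of the type C genes Dnajc17, Dnajc15, Dnajc9 and Dnajc2, with others at Hspa14 and Hspb2.

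Many members gave no signal above the background. Of the 60 members, 29 lay above the background on at least 4 of the 8 arrays, 10 on 1 to 3 arrays and 21 on none. The number above it on an array was 34, 33, 32 and 28 with the control diet and 30, 32, 24 and 27 with the high fat diet, in the order of the replicates, while 37.8% to 41.9% and 31.4% to 38.6% of all tested probe sets lay above it. The ranges of the diets overlapped, and the lowest count was that of high fat diet replicate 3. Among the 14 members with a higher signal at an unadjusted p under 0.05, 8 lay above the background on no array (Hspb7, Dnaja4, Dnajb5, Dnajb13, Dnajc27, Dnajc5b, Hspb11 and Hspb3). That is 57.1% of the 14, against 54.6% of all probe sets higher at that p. It is also 8 of the 21 members with no array above the background (38.1%), against 33.5% of all 7864 such probe sets. Their group means ran from 4.44 to 5.81 with the control diet and from 4.75 to 6.15 with the high fat diet, and no fold is given for them. Among the 29 members above the background on at least 4 arrays, 5 were higher at that p (17.2% against 29.3% of 6167 probe sets of the same kind) and 2 were lower (6.90% against 3.57%). In 4 of the 29 the groups lay apart in the higher direction (13.8% against 22.5%) and in 0 in the lower direction (against 1.67%).

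**Figure D2:**
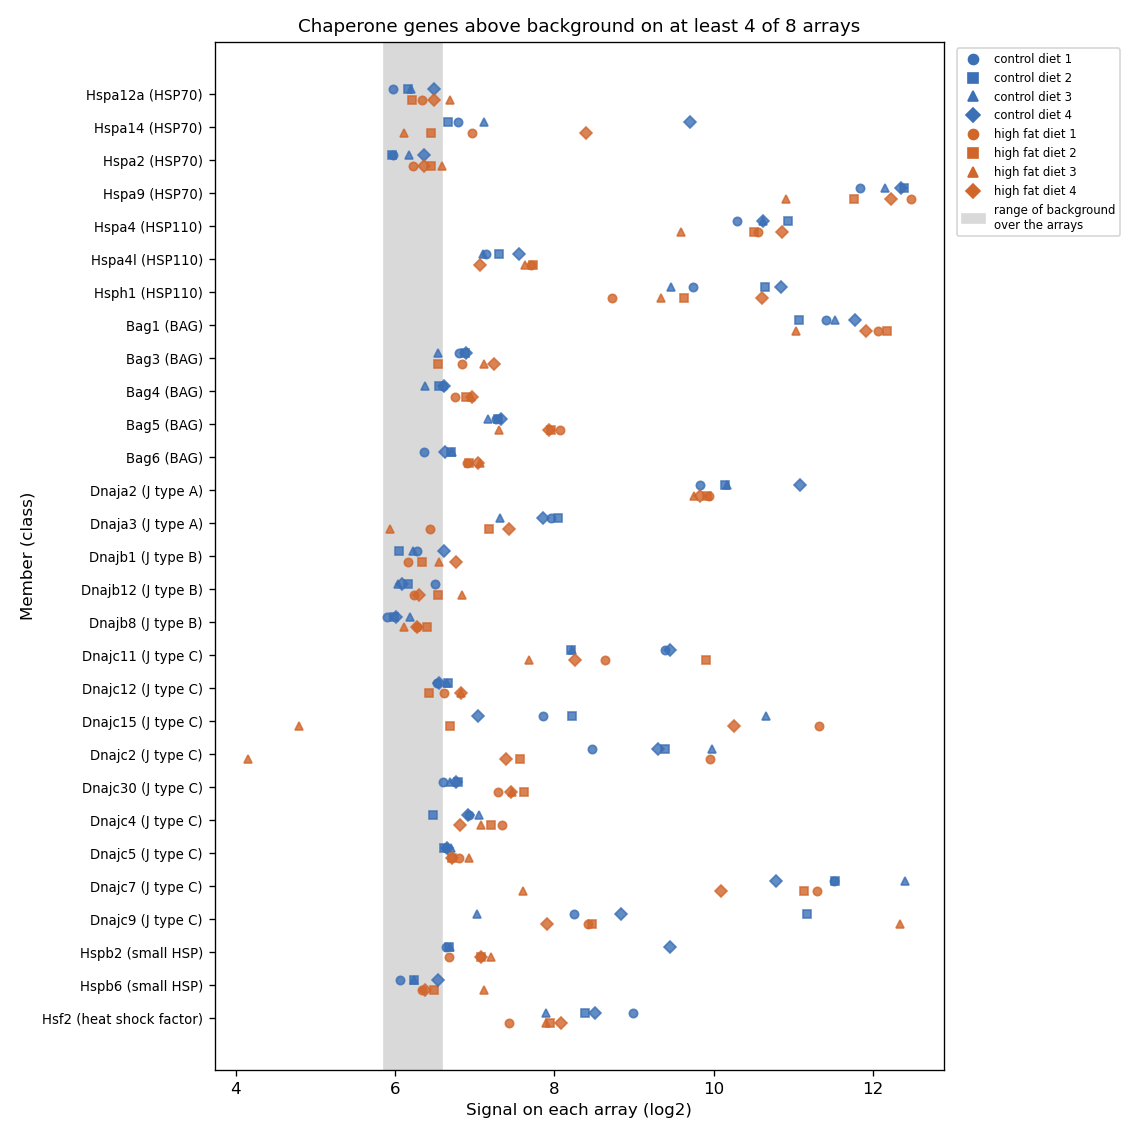
Log2 signal on each array for the 29 genes above background on at least 4 arrays, with diets in colour and replicates by symbol; the grey band spans the background over the arrays, and different genes' signals are not comparable with each other. Dnajc30, Bag4, Bag6 and Dnajc5 show every high fat diet array above every control diet array, and high fat diet replicate 3 is the lowest point for Dnajc2, Dnajc7 and Dnajc15.

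HSP70 members divided into those well above the background and those near or under it. Hspa9, the mitochondrial HSP70 that pulls imported proteins into the matrix, read 11.84, 12.38, 12.14 and 12.35 with the control diet and 12.47, 11.76, 10.91 and 12.22 with the high fat diet. The groups overlapped, and high fat diet replicate 3 was the lowest of the 8 arrays. The log2 change was -0.34 with an SE of 0.33 (limma adjusted p = 0.47), and it was -0.03 without that array. Hspa14 is a ribosome-bound HSP70 that works with the J-domain protein Dnajc2 on nascent chains. It read 6.79, 6.67, 7.12 and 9.70 against 6.96, 6.45, 6.11 and 8.40, so replicate 4 of either diet stood above the others. High fat diet replicate 3 was under the background, so its signal was at least 1.38-fold lower with the high fat diet (limma adjusted p = 0.59). There was no such bound without control diet replicate 4, where the measured change was +0.12. Hspa1a, the heat-inducible HSP70, lay above the background on 0 of 8 arrays, at 3.49, 3.57, 3.80 and 3.77 with the control diet and 3.77, 3.70, 3.89 and 3.84 with the high fat diet. Hspa2, known from male germ cells, read 5.97, 5.96, 6.18 and 6.36 against 6.22, 6.45, 6.59 and 6.36, with overlapping groups. Hspa12a, a distant relative, read 6.20 ± 0.21 and 6.43 ± 0.21 (SD, n = 4 each). Hspa2 and Hspa12a were close to the background, with 5 and 8 arrays above the 95th percentile and 0 above the 99th. Of the 7 HSP70 genes, 1 was higher at an unadjusted p under 0.05 (Hspa12b, above the background on 3 of 8 arrays) and 0 lower, against 30.1% and 1.79% of all tested probe sets.

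The 3 HSP110 genes, which act as nucleotide exchange factors, lay above the background on all 8 arrays. Hsph1, a heat-inducible member, read 9.74, 10.65, 9.46 and 10.84 with the control diet and 8.72, 9.63, 9.34 and 10.61 with the high fat diet. The groups overlapped widely. The change was -0.60 (SE 0.46, limma adjusted p = 0.37). Without high fat diet replicate 1 it was -0.31, and without high fat diet replicate 4 it was -0.94. Hspa4 read 10.29, 10.93, 10.62 and 10.62 against 10.55, 10.51, 9.59 and 10.85, with high fat diet replicate 3 the lowest, and its change of -0.24 was +0.02 without high fat diet replicate 3. Hspa4l read 7.28 ± 0.21 and 7.53 ± 0.31, a change of +0.26, close to the median of all probe sets.

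Each of the 6 BAG genes, the other class of exchange factors, had a change above 0. So did 78.7% of all tested probe sets, and 4 of the 6 lay above the median of all. Bag5, whose protein carries several BAG domains, read 7.26, 7.30, 7.16 and 7.33 with the control diet and 8.07, 7.96, 7.30 and 7.93 with the high fat diet. On this gene 3 high fat diet arrays lay above every control diet array, and high fat diet replicate 3 lay within the control range. The change was +0.55, or +0.33 relative to all probe sets (SE 0.17, limma adjusted p = 0.117). Bag6, which hands tail-anchored and mislocalised membrane proteins to their targeting or degradation routes, read 6.37, 6.70, 6.71 and 6.63 against 6.90, 6.92, 7.07 and 7.04. Bag4, known as a silencer of death receptors, read 6.60, 6.56, 6.37 and 6.61 against 6.75, 6.89, 6.96 and 6.96. For Bag4 and Bag6 the groups did not overlap, with the high fat diet higher, as was the case for 25.4% of all probe sets. Both were close to the background. Above its 99th percentile were 1 control diet array for Bag4 and 1 array of each diet for Bag6. The changes of Bag4 and Bag6 were +0.36 and +0.38, or +0.14 and +0.16 relative to all probe sets (limma adjusted p = 0.115 for each). After cyclic loess they were +0.07 and +0.10. Bag1, a partner of HSP70 and the proteasome, read 11.41, 11.06, 11.52 and 11.77 against 12.06, 12.17, 11.03 and 11.91. High fat diet replicate 3 was its lowest array, and its change of +0.36 was +0.61 without high fat diet replicate 3 and +0.23 without high fat diet replicate 2. Bag3, a heat-inducible factor of selective autophagy, read 6.80, 6.88, 6.54 and 6.89 against 6.84, 6.54, 7.12 and 7.25. The groups overlapped, with a change of +0.16 that was below 0 after median centring and after cyclic loess.

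Type A J-domain proteins keep the full layout of bacterial DnaJ. Dnaja3, the mitochondrial member and partner of Hspa9, read 7.96, 8.05, 7.32 and 7.85 with the control diet and 6.44, 7.17, 5.94 and 7.43 with the high fat diet. The 3 lowest of the 8 values were high fat diet arrays, and high fat diet replicate 4 lay above control diet replicate 3, so the groups overlapped. High fat diet replicate 3 was under the background, so the difference is a bound: the signal was at least 1.84-fold lower with the high fat diet taking the 95th percentile as background, or at least 1.49-fold taking the 99th. The measured change was -1.05 (SE 0.34, limma adjusted p = 0.12). Leaving out high fat diet replicate 3 gave -0.78. The other settings gave values down to -1.30, with limma adjusted p-values from 0.096 to 0.51. Dnaja2, a cytosolic partner of HSP70, read 9.82, 10.15, 10.16 and 11.09 against 9.94, 9.91, 9.75 and 9.83. The high fat diet arrays spanned only 9.75 to 9.94, and control diet replicate 4 was the highest of all. The change of -0.45 (SE 0.25, limma adjusted p = 0.24) was -0.19 without it. Dnaja1, the other cytosolic member, lay above the background on 0 of 8 arrays, at 5.52, 4.81, 5.13 and 5.04 against 4.92, 5.30, 5.34 and 5.15. So did Dnaja4, at 5.71 ± 0.06 and 6.13 ± 0.20 (SD, n = 4 each).

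Type B members were mostly at the background, with 6 of 9 above it on no array. Dnajb1, the heat-inducible partner of HSP70, read 6.28, 6.05, 6.22 and 6.61 with the control diet and 6.16, 6.33, 6.55 and 6.76 with the high fat diet, above the background on 4 and 2 arrays. The groups overlapped, and the change of +0.16 (SE 0.17, limma adjusted p = 0.50) was -0.13 after cyclic loess. Dnajb12, a J-domain protein of the ER membrane, read 6.51, 6.16, 6.04 and 6.08 against 6.23, 6.54, 6.83 and 6.31. Dnajb8, known from testis, read 5.90, 5.98, 6.19 and 6.01 against 6.27, 6.40, 6.11 and 6.27. The groups of both genes overlapped. Dnajb8 was above the 95th percentile in 2 of 4 pools of each diet and above the 99th in none. The changes of Dnajb12 and Dnajb8, +0.28 and +0.24, were below 0 after cyclic loess.

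Type C J-domain proteins share only the J domain and serve many separate tasks. With 23 members they were the largest class. Dnajc30, a mitochondrial protein that associates with the ATP synthase, read 6.61, 6.79, 6.69 and 6.77 with the control diet and 7.30, 7.61, 7.47 and 7.46 with the high fat diet. The gap between the groups, from 6.79 to 7.30, was wider than the range within either diet. Its signal was 1.68-fold higher, a log2 change of +0.75 (SE 0.09), or +0.53 relative to all probe sets. It had the smallest unadjusted limma p of the family, 5.5e-05, and an adjusted p of 0.115. The change was +0.48 after cyclic loess and between +0.69 and +0.80 with any single array left out. Its limma adjusted p lay between 0.074 and 0.44 in the settings tried. Dnajc5, the cysteine string protein of secretory vesicles, read 6.64, 6.62, 6.71 and 6.65 against 6.81, 6.71, 6.93 and 6.71. Its groups lay apart, but its change of +0.13 was smaller than the median of all probe sets and was -0.15 after cyclic loess. Dnajc5 lay above the 99th percentile of the background on 1 control diet array and on 0 high fat diet arrays. Dnajc4, a mitochondrial member, read 6.93, 6.47, 7.05 and 6.91 against 7.34, 7.20, 7.08 and 6.82, a change of +0.27 that lay just below 0 after cyclic loess.

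Dnajc2 and Dnajc7 had lower means with the high fat diet and a large spread. Dnajc2, the ribosome-bound partner of Hspa14, read 8.46, 9.39, 9.98 and 9.30 with the control diet and 9.96, 7.56, 4.15 and 7.39 with the high fat diet. High fat diet replicate 1 was close to the highest control value, and high fat diet replicate 3 was under the background. The signal was at least 2.65-fold lower with the 95th percentile as background, or at least 2.34-fold with the 99th, and without high fat diet replicate 1 at least 4.29-fold with the 95th. The measured change of -2.02 (SE 1.10, limma adjusted p = 0.22) was -0.98 without high fat diet replicate 3. A second Dnajc2 probe set, which the rule did not use, lay above the background on 0 of 8 arrays at 3.54 ± 0.06 and 3.83 ± 0.34 (SD, n = 4 each), so it gives no second reading. Dnajc7, which passes clients between HSP70 and HSP90 through its TPR repeats, read 11.50, 11.53, 12.40 and 10.78 against 11.30, 11.13, 7.60 and 10.09. The groups overlapped. Its change of -1.52 (SE 0.81, limma adjusted p = 0.22) was -0.71 without high fat diet replicate 3.

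The spread within a diet was wide for some other type C members, which are named here after their values were seen. Dnajc17, a nuclear protein tied to splicing, read 6.83, 3.05, 3.08 and 2.96 with the control diet and 4.05, 11.64, 3.55 and 9.49 with the high fat diet. It was above the background in control diet replicate 1 and in high fat diet replicates 2 and 4. The groups overlapped. The signal of Dnajc17 was at least 1.94-fold higher with the high fat diet taking the 95th percentile as background (limma adjusted p = 0.27). With the 99th the bound was 1.34-fold, and both bounds rest on high fat diet replicates 2 and 4. Dnajc15, a mitochondrial import factor of the inner membrane, read 7.86, 8.22, 10.66 and 7.04 against 11.32, 6.69, 4.79 and 10.26. Its group SDs were 1.56 and 3.04, high fat diet replicate 3 was under the background, and no bound on a difference between diets could be given. Dnajc9, a histone chaperone, read 8.24, 11.17, 7.03 and 8.84 against 8.42, 8.47, 12.34 and 7.90, above the background on all 8, with high fat diet replicate 3 as its highest array. A within-diet SD above 1 was found for 8 of 60 members (13.3%, against 8.93% of all tested probe sets), of which 7 were type C (Dnajc2, Dnajc7, Dnajc9, Dnajc10, Dnajc14, Dnajc15 and Dnajc17) and 1 was Hspa14. Among members above the background on at least 4 arrays the share was 17.2% (5 of 29), as it was for all such probe sets (17.2%).

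A further 3 type C members lay above the background in control diet pools alone, a set picked after its values were seen. Dnajc10, an ER protein that reduces disulfide bonds, read 7.01, 6.09, 5.95 and 9.06 with the control diet and 5.19, 5.31, 5.64 and 5.29 with the high fat diet. Every high fat diet array lay below every control diet array, and the difference was at least 1.63-fold with the 95th percentile as background and has no bound with the 99th (limma adjusted p = 0.14). Without control diet replicate 4 the bound was 1.02-fold. Dnajc14, an ER membrane protein, read 9.03, 6.46, 8.18 and 5.90 against 6.02, 5.91, 6.22 and 5.97. The lowest control value lay under all high fat diet values, and the means differed by at least 2.10-fold, or 1.25-fold with the higher percentile (limma adjusted p = 0.19). Without control diet replicate 1 they differed by at least 1.44-fold, with no bound at the higher percentile. Dnajc1, also of the ER membrane, read 6.83, 6.15, 7.95 and 5.26 against 5.62, 5.87, 5.62 and 5.86, at least 1.17-fold, with no bound at the higher percentile (limma adjusted p = 0.28) and none at either without control diet replicate 3. Each of these genes was above the background on 3 of 4 control diet arrays and on 0 of 4 high fat diet arrays. The background itself was higher on high fat diet arrays. Of all tested probe sets, 37.8% to 41.9% lay above it on control diet arrays and 31.4% to 38.6% on high fat diet arrays. The share of all probe sets with counts of 3 and 0 was not determined, so these counts are not read as a result about the genes. Dnajb9, left out of the family by the rule, also had counts of 3 and 0. Of the other left-out genes, Hspa5 read 9.14 ± 1.23 and 8.46 ± 0.73 and Dnajb11 11.07 ± 1.12 and 10.42 ± 1.04 (SD, n = 4 each), with overlapping groups.

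Hsp90aa1, the inducible cytosolic HSP90, lay above the background on 0 of 8 arrays, at 5.34, 5.69, 5.53 and 5.70 against 5.46, 5.98, 5.75 and 6.36. Of the 6 members grouped as small heat shock proteins by their Hspb symbol alone, 3 lay above it on no array. Hspb2, known from muscle, read 6.64, 6.67, 6.69 and 9.45 with the control diet and 6.68, 7.07, 7.20 and 7.08 with the high fat diet. Its change of -0.36 was +0.34 without control diet replicate 4. Hspb6 read 6.06, 6.24, 6.24 and 6.54 against 6.34, 6.49, 7.11 and 6.38, a change of +0.31, with 0 arrays above the 99th percentile. Hsf2, the heat shock factor known for roles in development, read 8.99, 8.39, 7.89 and 8.50 with the control diet and 7.43, 7.94, 7.89 and 8.08 with the high fat diet. All but 1 of the control diet values lay above all high fat diet values. The change was -0.61, or -0.83 relative to all probe sets (SE 0.24, limma adjusted p = 0.14). It ran from -0.79 to -0.34 over the settings, and without control diet replicate 1 it was -0.43.

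**Figure D3:**
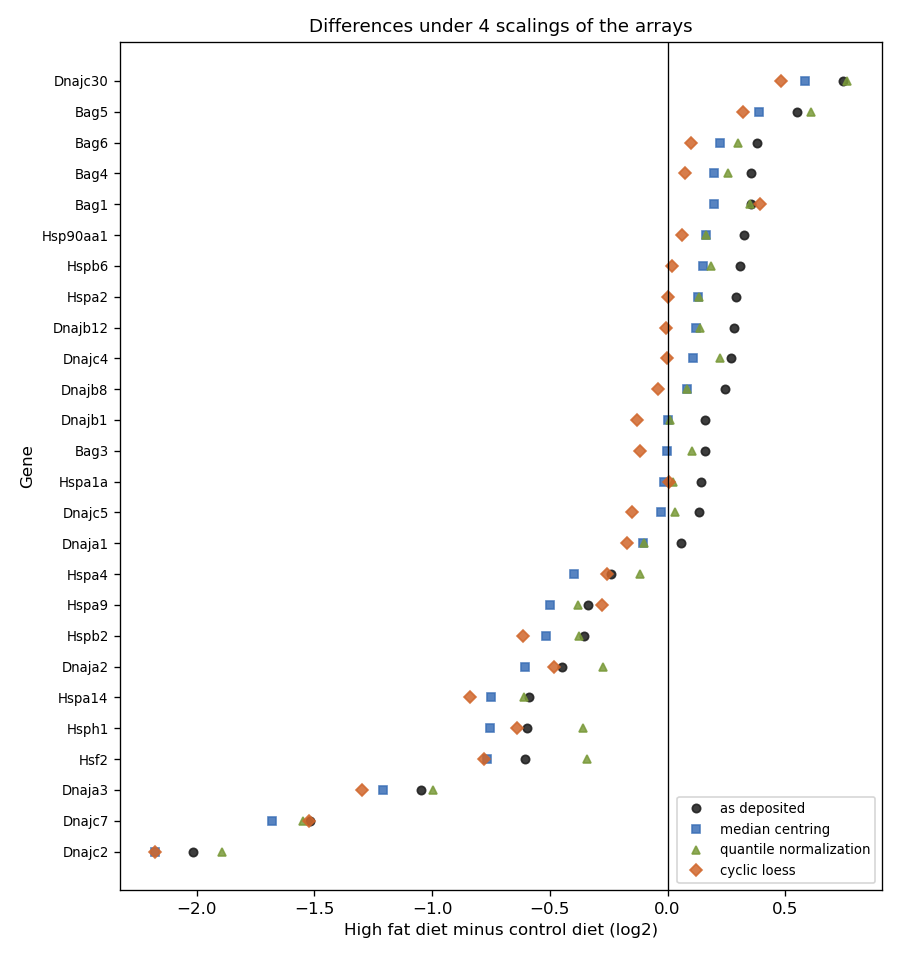
Difference between diets in log2 signal for the 26 genes with values on each array, with the deposited scaling and 3 others. Dnajc2, Dnajc7, Dnaja3, Hsf2 and Hsph1 stay below 0 and Dnajc30, Bag5, Bag6, Bag4 and Bag1 above it, while genes such as Dnajb1, Bag3 and Dnajc5 lie on either side of 0.

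Heat shock factors bind inverted repeats of GAA. Promoter windows from RefSeq (GRCm38.p6), with 250 bases before and 50 after a start site, were found for 47 of the 60 members. A site of 3 units (GAA, any 2 bases, TTC, any 2 bases, GAA, or the reverse complement) lay in the window of 1 member, Hsph1 (2.13%, against 0.662% of 27025 genes). A pair of units (GAA, any 2 bases, TTC, or TTC, any 2 bases, GAA; each is its own reverse complement and every 3-unit site holds both) lay in the windows of 12 members (25.5%, against 17% of all genes). The search for pairs was added after the data were seen. Sites are given for the exchange factor with the 3-unit site, for the inducible HSP70, for the type A genes Dnaja1 and Dnaja4 and for the gene whose groups lay apart in the lower direction. Those of Bag3, Dnajb4, Dnajc27, Dnajc5g, Hspb3, Hspb6 and Hspb8, a second of Dnaja4 and further pairs of Hsph1 after its start are not printed. The printed sites are on the gene's strand, 5′ to 3′, with the motif in capitals. Coordinates are those of the whole printed stretch, flanking bases included. The Hsph1 pair lies within chr5:149636337-149636395 on the minus strand and its 3-unit site within chr5:149636287-149636308, after the start. The Hspa1a pair lies within chr17:34972227-34972286 on the minus strand. The others lie on the plus strand, Dnaja1 within chr4:40722318-40722377, Dnaja4 within chr9:54699443-54699502 and Dnajc10 within chr2:80315258-80315317.
Hsph1, pair: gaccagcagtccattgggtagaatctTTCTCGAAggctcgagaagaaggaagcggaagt
Hsph1, 3 units: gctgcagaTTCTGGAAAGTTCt
Hspa1a: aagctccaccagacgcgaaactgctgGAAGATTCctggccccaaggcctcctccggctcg
Dnaja1: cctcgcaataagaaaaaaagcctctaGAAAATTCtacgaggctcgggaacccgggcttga
Dnaja4: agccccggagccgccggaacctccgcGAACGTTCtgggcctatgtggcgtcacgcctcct
Dnajc10: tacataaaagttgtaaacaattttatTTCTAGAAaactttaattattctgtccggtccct

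The genes with these letters differed in signal. Hsph1 was above the background on all 8 arrays, Dnajc10 on 3, and Hspa1a, Dnaja1 and Dnaja4 on none. Hspa1a, Hsp90aa1, Dnajb1, Hsph1 and Bag3 are the members called inducible above, a group that was not set beforehand. Of these, 0 of 5 passed limma at an adjusted p under 0.05 and 0 of 5 at an unadjusted p under 0.05. At the latter, 30.1% of all tested probe sets were higher and 1.79% lower. Hspa1a and Hsp90aa1 lay above the background on no array, so no change is given for them. The log2 changes of the others were -0.60 for Hsph1 and +0.16 for both Dnajb1 and Bag3. Outside that group, among genes with printed sites, Dnaja4 was higher and Dnajc10 lower at an unadjusted limma p under 0.05, and Dnaja1 was neither. A match is a description of the letters and not of binding.

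The mitochondrial members did not move together. Of 8 measured, 4 had a change above 0 and 4 below, from -1.05 for Dnaja3 to +0.75 for Dnajc30. Their median was -0.03, or -0.24 relative to all probe sets. Of the 4 above 0, Dnajc19 lay above the background on 0 arrays and Dnajc28 on 1, and Dnajc4 and Dnajc30 on 8. The 4 below 0 (Dnaja3, Dnajc11, Dnajc15 and Hspa9) lay above it on 7 or 8 arrays. Genes of the same pathways outside the family gave 0 calls at limma's adjusted threshold in each of 5 lists. Their counts at an unadjusted p under 0.05 stand against 30.1% of all tested probe sets higher and 1.79% lower, and 78.7% with a change above 0. Of 20 measured HSP90 co-chaperones and TPR adaptors, 4 were higher at that p, a smaller share than of all probe sets, and 0 lower. Stub1, a ubiquitin ligase that acts on clients of HSP70, read 6.81 ± 0.34 and 7.49 ± 0.14 (SD, n = 4 each), and Nudcd3 6.46 ± 0.10 and 6.68 ± 0.11, a change of +0.22 like that of the median probe set. The other 2 of these 4 lay above the background on no array. Of 11 genes of mitochondrial folding and import and of 6 subunits of the cytosolic chaperonin CCT, 0 were past that p in either direction. Of 5 prefoldin subunits 1 was higher, Pfdn6, at 10.77 ± 0.50 and 11.83 ± 0.72. Of 16 ER folding genes 0 were higher and 2 lower, and 4 had a change above 0, with a median of -0.22. Pdia6, a disulfide isomerase, was one of those 2, at 9.06 ± 0.93 and 7.79 ± 0.77, and Dnajb9 was the other. The median of the 60 members was +0.17, and those of the other lists were +0.18 for HSP90 co-chaperones, +0.11 for mitochondrial folding, +0.14 for prefoldin and -0.08 for CCT. Differences between the lists were not tested.

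High fat diet replicate 3 was the extreme array for many members. Among the 29 members above the background on at least 4 arrays, it was the lowest of the 8 on 10 (34.5%) and the highest on 8 (27.6%). Over all 6167 such probe sets it was the lowest on 13.0% and the highest on 42.9%. Without it, 13 members were higher and 1 lower at an unadjusted p under 0.05, the lower member being Dnaja3. Of all tested probe sets, 24.5% were then higher and 1.15% lower.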

How the data were processed

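The authors deposited log2 values from 8 arrays. RMA and Partek appear in the submitters' processing notes, while versions, settings and genome build are not given there. Per the labels' protocols, RNA of each pool was turned into cDNA and linearly amplified with one kit and then with another. All 8 columns were matched to samples. The table held 23332 probe sets, and the 16015 with at least 1 gene symbol in the platform annotation were tested with limma 3.58.1 in R 4.3.3 (lmFit, eBayes, two-sided, Benjamini-Hochberg adjustment over all of them, threshold 0.05), without a block. The test was tried on simulated data. By rule, values on each array are given for 26 members: the textbook core and up to 10 per direction with the smallest limma p among members above the background on at least 4 arrays. Dnajc1, Dnajc9, Dnajc10, Dnajc14, Dnajc15 and Dnajc17 were added after their values were seen. Members, lists and tests were chosen with earlier results of these data known. Array number limits the precision. Neither the labels nor the table gave a batch. Same-numbered arrays of the 2 diets did not deviate together (r from -0.02 to 0.08), so numbers were not taken as pairs. Alternatives changed the probe sets, scaling, variance model, block, row per gene and background percentile, and left out each array.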

Additional observations from a re-analysis of the deposited data

Results flagged for a closer look

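In 120 groups of 4 arrays (60 genes by 2 diets), 11 held an array far from its other 3, where chance gives about 1 in 20, or 6. Of the 11, 4 were on high fat diet replicate 3 and 3 on control diet replicate 4. On high fat diet replicate 3, Dnajc9 read 12.34 against 7.90 to 8.47 on the other arrays of its diet, Dnajc16 read 6.66 against 6.03 to 6.11, Dnajb3 4.67 against 4.02 to 4.12 and Dnajc19 3.69 against 3.22 to 3.26. The last 2 of these lay under the background. On control diet replicate 4, Hspa14 read 9.70 against 6.67 to 7.12, Hspb2 9.45 against 6.64 to 6.69, and Dnajb5, under the background, 6.04 against 5.71 to 5.75. Dnajc17 read 6.83 on control diet replicate 1 against 2.96 to 3.08, and Hspa13 read 6.84 on control diet replicate 2 against 4.28 to 4.69. Hspa13 on high fat diet replicate 2 read 4.66 against 4.77 to 4.78, under the background. Hspa4l on high fat diet replicate 4 read 7.07 against 7.63 to 7.73.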

How the results depend on the processing

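In all 17 alternatives 0 of 60 members passed limma's adjusted threshold (29 members were tested in the filter on dim probe sets). The 14 members higher at an unadjusted p under 0.05 were 4 with that filter, which leaves fewer genes, 6 with median centring, 7 with quantile normalization and 2 with cyclic loess (Dnaja4 and Dnajc30), and 12 to 14 with an array left out. The 3 lower members were 6 with cyclic loess and 1 to 4 with an array left out, 1 without high fat diet replicate 2 or 3. Over all tested probe sets these scalings moved the same shares from 30.1% to 11.7%, 13.4% and 4.23% in the higher direction, and from 1.79% to 3.57%, 2.55% and 5.24% in the lower. With the filter these shares were 24.1% and 3.31%. With an array left out they ran from 17.9% to 33.8% and from 1.15% to 2.37%. Members with groups apart in the higher direction went from 14 to 4, 4, 5 and 2 with the filter, median centring, quantile normalization and cyclic loess, and 14 to 20 when single arrays were dropped. The share of all tested probe sets went from 25.4% to 22.5%, 9.29%, 11.3% and 3.53%, and was 26.2% to 35.9% when single arrays were dropped. In the lower direction the members' count of 1 became 0, 3 and 5 with the filter, median centring and cyclic loess, and was 1 to 4 with an array left out. The share of all tested probe sets went from 0.855% to 1.67%, 2.11% and 3.33%, and was 1.20% to 1.79% with an array left out. The members' median log2 change of +0.17 was +0.010, +0.037 and -0.044 with median centring, quantile normalization and cyclic loess. Relative to all probe sets it was -0.05, then -0.077 with the filter on dim probe sets, -0.014 with array weights, and -0.055 to -0.013 with an array left out. With the replicate block, 11 members were higher and 3 lower, Hsph1 in place of Hsf2, and 0 passed the adjusted threshold. With that block 22.3% of all tested probe sets were higher and 2.09% lower. Of the 26 members chosen by rule for values on each array, 15 kept the sign of their change and 11 did not. Each gene was read in 15 alternatives (14 for Dnaja1, Hsp90aa1 and Hspa1a, which the filter removes). The variance model of eBayes and the replicate block were not among them. The 6 type C genes added later were not in that count. Among the 15 alternatives, testing all rows and the filter cannot move a gene's change. The mean of all rows of a gene moves it for Dnajc2 alone. At the 99th percentile of the receptors, a control diet array had 21 members above the background on average and a high fat diet array 15.75, against 31.75 and 28.25 at the 95th. The 99th percentile was itself 6.50 to 6.78 on control diet arrays and 6.91 to 7.31 on high fat diet arrays. Shares of all tested probe sets were taken at the 95th alone (37.8% to 41.9% and 31.4% to 38.6%). These counts are therefore not read as a result about the members. The higher members were 82.4% of all members past an unadjusted p of 0.05, and 60%, 77.8% and 25.0% with median centring, quantile normalization and cyclic loess. Of all tested probe sets, 4826 were higher and 286 lower at that p. These counts were 1872 and 571 with median centring, 2153 and 409 with quantile normalization, and 678 and 839 with cyclic loess. Groups apart do not depend on the variance model or the block. The causes were not tested.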
